A study of Mus musculus with 6 samples.

Results

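YAP and TAZ, encoded by Yap1 and Wwtr1, are the transcriptional co-activators at the end of the Hippo pathway, and the TEAD family (Tead1, Tead2, Tead3 and Tead4) supplies the DNA-binding proteins through which they act. These 6 genes and 4 genes known as their targets (Amotl2, Ankrd1, Axl and Lats2) were taken by name from a gene expression table. All 10 were present once, among 56448 genes in the table. In the Hippo pathway the kinases MST1 and MST2 (Stk4 and Stk3) activate LATS1 and LATS2, which phosphorylate YAP and TAZ so that they are held in the cytoplasm or degraded. When the kinases are inactive, YAP and TAZ enter the nucleus and drive growth and matrix genes with the TEADs, and in carcinoma cells this activity is associated with invasion and survival. Phosphorylation is not seen in messenger RNA, so the transcript levels below describe the supply of the components and the levels of target messages, not the activity of the pathway.

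The libraries came from 4T1 cells, an established mouse mammary carcinoma line grown in medium with fetal bovine serum. The extraction protocol in the labels speaks of tissue and the design text of a microarray, while the cell line, growth protocol and series type describe sequenced cultured cells. Libraries were of 2 kinds, 3 labelled in9 and 3 labelled LV2, all without further treatment in the labels. According to the series, lentivirus was used to lower the microRNA miR-9 stably, beside a control, and the labels neither spell out the names nor say which is the control, so each difference is given as in9 minus LV2. The labels do not say whether the lines were clones or whether each replicate was its own culture. The p-values below therefore reflect just the scatter among these libraries, which may be technical. Levels are in TPM (a transcript abundance scaled for gene length and library size), which keeps no record of depth, so depth is unknown.

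A linear model (limma) was fitted on log2(TPM + 1) to the 13406 genes that averaged 1 TPM or more, and an adjusted p under 0.05 counted as a call. In in9, 110 genes (0.821%) were called higher and 26 (0.194%) lower. The epithelial markers (Cdh1, Epcam, Krt8, Krt18, Krt7 and Cldn4) summed to 2221 to 2281 TPM in in9 and 2327 to 2387 TPM in LV2, most of it from Krt8 and Krt18. Of the 6 markers, Cdh1 alone had a positive log2 fold change and the others had negative ones. Cdh1 had 129.85, 147 and 147 TPM in in9, against 130.4, 123 and 118 TPM in LV2 (log2 fold change 0.19, adjusted p = 0.201), and Epcam had 38.1, 36.7 and 35.9 TPM in in9, against 47.65, 45.8 and 43.85 TPM in LV2 (-0.30, adjusted p = 0.0633). The groups overlapped for Cdh1, Krt7 and Cldn4. For Epcam, Krt8 and Krt18 every in9 library was below every LV2 library, as for 8.08% of tested genes. All 6 immune markers were under 1 TPM in every library. Their sum was 0.00 to 0.22 TPM in in9 and 0.14 to 0.17 TPM in LV2. Of the fibroblast markers 4 of 5 stayed under 1 TPM, the exception being Pdgfra, and the list summed to 7.92 to 8.43 TPM in in9 and 4.72 to 6.70 TPM in LV2. Of the endothelial markers 3 of 4 stayed under 1 TPM, and the list summed to 1.97 to 2.17 TPM in in9 and 1.72 to 1.95 TPM in LV2. In bulk RNA, fewer cells of a kind and less RNA per cell cannot be told apart. Replicate 1 of in9 differed from the rest of its group, at -2.70 on the first principal component where replicates 2 and 3 were at 26.1 and 27.8 and LV2 lay between -22.2 and -6.98. Mitochondrial transcripts took 6.42%, 7.64% and 7.49% of TPM in in9 and 5.90%, 5.97% and 6.01% in LV2, and ribosomal protein genes 12.3%, 10.3% and 10.6% in in9 against 12.6%, 13.2% and 13.3% in LV2. Without in9 replicate 1, 971 genes (7.25%) were called higher, Cdh1 among them, and 509 (3.80%) lower, Epcam among them.

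A microRNA pairs with messages mainly through its seed, and the seed of miR-9 was matched to the 3' UTRs of the 10 genes. RefSeq (GRCm38.p6) lists the same mature miR-9-5p from Mir9-1 (chr3:88215613-88215635), Mir9-2 (chr13:83738821-83738843) and Mir9-3 (chr7:79505279-79505301), all on the plus strand. It is shown from 5' to 3' with the seed, bases 2 to 8, in capitals.

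miR-9-5p: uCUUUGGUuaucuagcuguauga

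The 3 precursor genes were listed at 0 TPM in all libraries, and mature microRNA was not measured here. The noncoding gene Mir9-3hg, which spans Mir9-3, was also at 0 in all libraries. C130071C03Rik, which spans Mir9-2, had 1.96, 1.77 and 1.99 TPM in in9, against 1.64, 1.74 and 1.73 TPM in LV2. Its log2 fold change was 0.10 ± 0.14 (SE, adjusted p = 0.715 in limma). Every in9 library was above every LV2 library for this gene, as for 17.4% of tested genes. A match was the letters ACCAAAG or CCAAAGA, or ACCAAAGA where they join, on the transcript strand of the longest annotated 3' UTR in GENCODE M21. Of the 10 genes 4 held a match, 1 each, and none held the 8-base form. Of 10952 tested genes with an annotated 3' UTR, 2436 (22.2%) held at least 1 match. The 3' UTRs of the 10 genes had a median length of 1508 bases and those of the tested genes 1167 bases, and a longer sequence has more room for a match. The 4 windows below give each match in capitals within its 3' UTR (mm10, printed 5' to 3' on the gene's strand).

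Yap1, chr9:7933037-7933066, - strand: aataatggtttCCAAAGAgtattttttaaa

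Tead4, chr6:128228013-128228042, - strand: atcaccaagacACCAAAGctcaagaccctt

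Amotl2, chr9:102733256-102733285, + strand: aacgttttctgCCAAAGAccatgacgtgtg

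Axl, chr7:25757700-25757729, - strand: actaatgagacACCAAAGttctaaccactt

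The TAZ gene Wwtr1, with 3277 bases of 3' UTR, and Tead1, with 8147 bases, held none of these letters. A match is a description of the letters and does not show that miR-9 binds there. The 4 genes with a match had log2 fold changes of 0.03 (Yap1), 0.14 (Tead4), -0.01 (Amotl2) and 0.16 (Axl). The 2 genes of the set whose in9 and LV2 libraries did not overlap, Tead2 and Ankrd1, held no match, which was so for most tested genes. Over tested genes with an annotated 3' UTR, the median log2 fold change was 0.08 with a match and 0.06 without. Whether matches go with the differences was not tested.

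None of the 10 genes was called in either direction over all genes tested in limma, where 0.821% of tested genes were called higher and 0.194% lower. Before adjustment, 2 of the 10 (Tead2 and Ankrd1) were higher with p under 0.05 and none was lower, beside 13.6% higher and 5.86% lower over all tested genes. The same 2 genes had every in9 library above every LV2 library, which was so for 17.4% of tested genes, while 8.08% had every in9 library below. The log2 fold change was positive for 9 of the 10, with a median of 0.13, beside 63.7% positive and a median of 0.06 over all tested genes. With libraries rescaled by trimmed means, the medians were 0.08 for the 10 genes and 0.01 for all tested genes. On that scale 8 of the 10 were positive, beside 6904 of the 13406 tested genes. These shares are close to those of the whole table, apart from the positive sign, which was not tested. All 10 genes passed the minimum of 1 TPM.

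**Figure D1:**
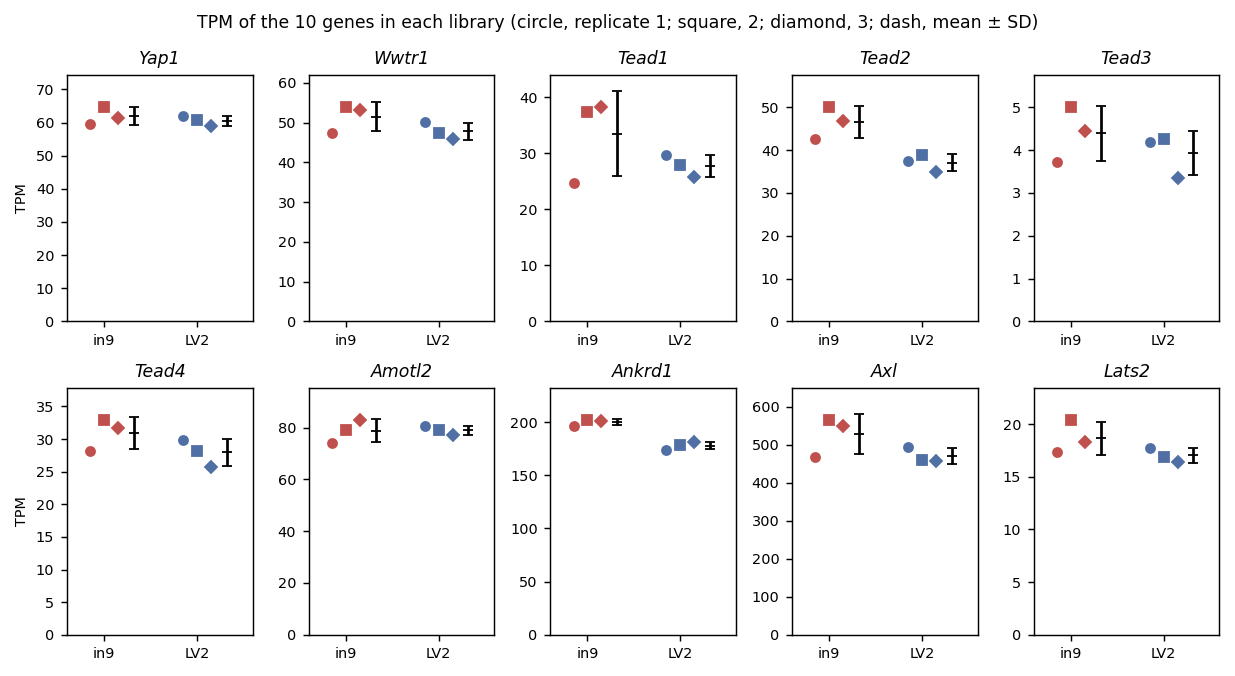
TPM (vertical axes, each starting at 0) of the 10 genes in each library, in9 left and LV2 right, with the mean and SD beside each group (n = 3). The in9 libraries lie above all LV2 libraries for Tead2 (42.6 to 50.1 against 34.95 to 38.7) and Ankrd1 (197 to 202 against 174 to 181), and the groups overlap for the other 8 genes.

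The co-activator genes were at nearly the same level in the groups. Yap1 (chromosome 9, 7931999 to 8004596, minus strand in mm10) had 59.5, 64.8 and 61.5 TPM in in9, against 62.0, 60.7 and 58.9 TPM in LV2. The groups overlapped, and all 6 values lay within a narrow band. Its log2 fold change was 0.03 ± 0.05 (SE, adjusted p = 0.760 in limma), with a 95% interval of -0.09 to 0.16, and its sign turned to -0.03 after trimmed-mean scaling. Wwtr1 (chromosome 3, 57455649 to 57575910, minus strand) had 47.3, 54.0 and 53.2 TPM in in9, against 50.2, 47.3 and 45.9 TPM in LV2. Its in9 replicates 2 and 3 were the highest of the 6 libraries and in9 replicate 1 lay among the LV2 values. The log2 fold change of Wwtr1 was 0.10 ± 0.07 (SE, adjusted p = 0.443), with an interval of -0.06 to 0.27. It was 0.16 without in9 replicate 1 and 0.07 without in9 replicate 2. Both intervals include 0 and neither reaches past 0.27 in size.

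The balance of the paralogs was read within each library, where scaling between libraries has no effect. Wwtr1 made up 44.3%, 45.5% and 46.4% of the summed Yap1 and Wwtr1 TPM in in9, against 44.7%, 43.8% and 43.8% in LV2. The mean share was 45.4% ± 1.05 in in9 and 44.1% ± 0.529 in LV2 (SD, n = 3 each), a difference of 1.26 percentage points (exact two-sided permutation p = 0.2). With 3 libraries against 3 the exact permutation test cannot go below p = 0.1. Yap1 was the higher of the pair in all 6 libraries.

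The TEAD genes differed more in level than the co-activators, with Tead2 the highest of the family. Tead2 (chromosome 7, 45215753 to 45233644, plus strand) had 42.6, 50.1 and 46.9 TPM in in9, against 37.5, 38.7 and 34.95 TPM in LV2. Every in9 library was above every LV2 library. Its log2 fold change, the largest of the 10 genes, was 0.32 ± 0.08 (SE) with an interval of 0.14 to 0.50, an unadjusted p of 0.00448 and an adjusted p of 0.103 in limma. It stayed between 0.26 and 0.38 under all 15 alternatives, with an adjusted p of 0.0238 to 0.297.

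Tead1 (chromosome 7, 112679318 to 112906807, plus strand) had 24.8, 37.4 and 38.3 TPM in in9, against 29.6, 28.0 and 25.7 TPM in LV2. The in9 libraries split: replicate 1 was the lowest of all 6 and replicates 2 and 3 were the highest. The log2 fold change of Tead1 was 0.24 ± 0.17 (SE, adjusted p = 0.468), and without in9 replicate 1 it was 0.44 ± 0.07 (adjusted p = 0.0281). It was 0.15 without in9 replicate 2 (adjusted p = 0.769) and 0.13 without in9 replicate 3 (adjusted p = 0.781). Tead4 (chromosome 6, 128224288 to 128300823, minus strand) had 28.1, 32.9 and 31.8 TPM in in9, against 29.9, 28.2 and 25.8 TPM in LV2. Its in9 replicates 2 and 3 were again the highest, and its log2 fold change was 0.14 ± 0.08 (SE, adjusted p = 0.406), or 0.08 without LV2 replicate 3. Tead3 (chromosome 17, 28331671 to 28350817, minus strand) was the lowest of the 10 genes, with 3.71, 5.01 and 4.44 TPM in in9, against 4.19, 4.26 and 3.34 TPM in LV2. The groups overlapped for Tead3, and its log2 fold change was 0.13 ± 0.14 (SE, adjusted p = 0.659). It was 0.22 without in9 replicate 1, 0.04 without in9 replicate 2 and 0.04 without LV2 replicate 3. The TEAD proteins are close relatives and reads of conserved stretches may have been split between their genes.

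Within the family, Tead2 took 43.0%, 39.9% and 38.6% of the summed TEAD TPM in in9, against 37.1%, 39.0% and 38.9% in LV2. The groups overlapped, and the means differed by 2.16 percentage points (exact two-sided permutation p = 0.3). Tead1 took 25.0%, 29.8% and 31.6% in in9, against 29.3%, 28.2% and 28.6% in LV2, a difference in means of 0.07 points (p = 1 in the same exact permutation test). In in9 replicate 1 Tead1 had its lowest share and Tead2 its highest. Tead4 took 28.3%, 26.2% and 26.2% in in9, against 29.5%, 28.5% and 28.7% in LV2, so that every in9 share lay below every LV2 share (p = 0.1 in the exact permutation test, the smallest it can give). Tead3 took 3.66% to 3.99% in in9 and 3.72% to 4.29% in LV2 (p = 0.3 in the exact permutation test). The p-values of these 5 shares are not adjusted for one another.

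The family as a whole was compared with its co-activators by a ratio chosen after the values were seen and so given with no test. Summed TEAD over summed Yap1 and Wwtr1 was 0.929, 1.06 and 1.06 in in9, against 0.903, 0.919 and 0.856 in LV2. All in9 libraries were above all LV2 libraries, with in9 replicate 1 just above the highest LV2 library. The summed TEAD level was 115 ± 14.1 TPM in in9 and 96.7 ± 6.12 TPM in LV2 (SD, n = 3 each), and the summed co-activator level was 113 ± 6.07 TPM in in9 and 108 ± 3.68 TPM in LV2.

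**Figure D2:**
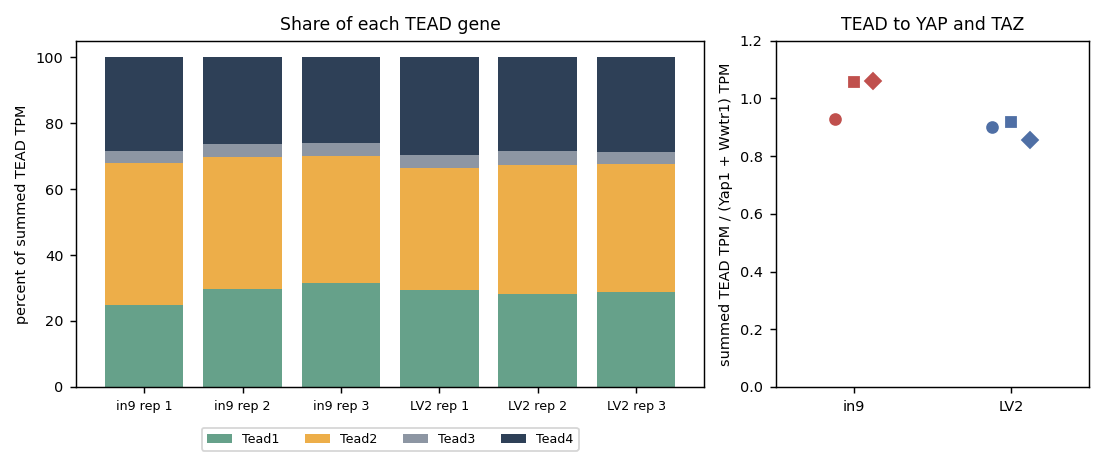
Left, the percent of summed TEAD TPM from each TEAD gene in each library, stacked. Right, summed TEAD TPM over summed Yap1 and Wwtr1 TPM, 1 point per library (circle, square and diamond for replicates 1, 2 and 3). Tead2 holds 37.1% to 43.0% in every library, Tead3 under 5%, and the ratio is 0.929 to 1.06 in in9 and 0.856 to 0.919 in LV2.

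The 4 targets differed from one another in how they stood between the groups. Ankrd1 encodes a nuclear ankyrin-repeat protein and is a widely used readout of YAP and TAZ. It had 197, 202 and 201 TPM in in9, against 174, 178 and 181 TPM in LV2 (chromosome 19, 36111961 to 36120099, minus strand in mm10). The in9 libraries were close to one another, in9 replicate 1 included, and all lay above LV2. The log2 fold change was 0.17 ± 0.04 (SE), a ratio of mean TPM of 1.12, with an interval of 0.08 to 0.26, an unadjusted p of 0.00316 and an adjusted p of 0.0917 in limma. Under the 15 alternatives it was 0.11 to 0.19, with an adjusted p of 0.0222 to 0.292.

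Axl, a receptor tyrosine kinase tied to invasion and drug resistance in carcinomas, was the most abundant of the 10 genes. It had 468, 564 and 550 TPM in in9, against 495, 459 and 458 TPM in LV2 (chromosome 7, 25757273 to 25788705, minus strand). Replicates 2 and 3 of in9 were above all LV2 libraries and in9 replicate 1 lay within them. Its log2 fold change was 0.16 ± 0.08 (SE, adjusted p = 0.313), and without in9 replicate 1 it was 0.25 ± 0.04 (adjusted p = 0.0313). Without in9 replicate 2 it was 0.11 (adjusted p = 0.608).

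Amotl2 and Lats2 are targets that also restrain YAP, the first as an angiomotin that binds it at junctions and the second as a kinase that phosphorylates it. Amotl2 had 74.1, 79.1 and 82.9 TPM in in9, against 80.7, 79.0 and 77.2 TPM in LV2 (chromosome 9, 102716672 to 102733418, plus strand). The in9 libraries spread on both sides of the LV2 values, and the log2 fold change was -0.01 ± 0.05 (SE, adjusted p = 0.965) with an interval of -0.14 to 0.13. Lats2 had 17.3, 20.4 and 18.3 TPM in in9, against 17.8, 16.9 and 16.4 TPM in LV2 (chromosome 14, 57689662 to 57758388, minus strand). Replicates 2 and 3 of in9 were the highest libraries for Lats2, and its log2 fold change was 0.12 ± 0.08 (SE, adjusted p = 0.434). Without in9 replicate 2 it was 0.06, and with quantile normalization 0.04.

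Without in9 replicate 1, 4 of the 10 genes were called higher (Tead1, Tead2, Ankrd1 and Axl) and none lower, where 7.25% of tested genes were higher and 3.80% lower. None was called when any other single library was left out. Relative to the LV2 mean, the median of the 10 genes was -0.01 in in9 replicate 1, 0.24 in replicate 2 and 0.16 in replicate 3 on log2(TPM + 1). Over all tested genes the medians in the same libraries were 0.00, 0.08 and 0.09. The shares of mitochondrial and ribosomal protein transcripts given above also set in9 replicates 2 and 3 apart from the other 4 libraries, and their part in these differences was not tested. With TPM rescaled after removal of mitochondrial transcripts no gene of the 10 was called, and their median log2 fold change was 0.15 beside 0.08 over all genes.

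**Figure D3:**
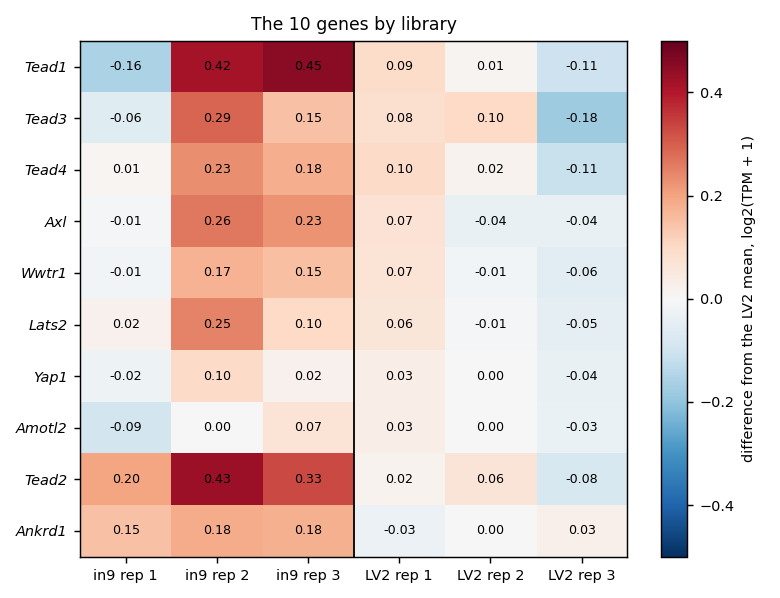
Difference of each library from the LV2 mean on log2(TPM + 1), by gene (rows) and library (columns), from blue (below) to red (above), with the value in each cell. Tead2 and Ankrd1 are above the LV2 mean in all 3 in9 libraries (0.20 and 0.15 in in9 replicate 1), while Tead1, Axl, Wwtr1, Tead3 and Tead4 lie between -0.16 and 0.01 in in9 replicate 1 and between 0.15 and 0.45 in in9 replicates 2 and 3.

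The order of the levels on the TPM scale was Axl, Ankrd1, Amotl2, Yap1, Wwtr1, Tead2, then Tead1 and Tead4, then Lats2 and Tead3. Each neighbour in this order was above the next in all 6 libraries except Tead1 and Tead4, where Tead1 was above Tead4 in 2 of 3 in9 libraries and in 0 of 3 LV2 libraries. Tead1 averaged 33.5 ± 7.57 TPM and Tead4 30.9 ± 2.50 TPM in in9, and they averaged 27.8 ± 1.97 and 28.0 ± 2.08 TPM in LV2 (SD, n = 3 each), so these neighbours did not differ beyond their spread. Across libraries the levels of neighbours also overlapped for Wwtr1 and Tead2 and for Tead2 and Tead1. Among tested genes Axl ranked 274th by mean TPM, Ankrd1 776th, Yap1 2718th, Wwtr1 3275th and Tead3 10935th.

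The genes whose pattern over the 6 libraries was most like that of the co-activators are given as a description, since the libraries share their group and in9 replicate 1 stands apart. They were picked for the highest r among the tested genes over 6 libraries, so their r is high partly through that choice. For Yap1 these were Lrp8, Ece1 and Coro1c, with Pearson r of 0.993, 0.990 and 0.988 on log2(TPM + 1) over 6 libraries. Ece1 ran from 29.1 to 129 TPM over these libraries, a far wider range than that of Yap1. For Wwtr1 they were Cyfip1, Clasp1 and Ssr3, with r of 0.999, 0.997 and 0.997 over the same libraries. Among the 10 genes themselves the highest value was that of Wwtr1 with Axl (r = 0.984), followed by Wwtr1 with Tead4 (r = 0.976). The lowest was that of Amotl2 with Ankrd1 (r = -0.018).

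TEAD proteins bind the core letters CATTCC, and these were searched on both strands in the promoter windows of the set, from 250 bases before to 50 after each annotated start (RefSeq, GRCm38.p6). The motif does not overlap itself on the opposite strand, where it reads GGAATG. Windows were held for 8 of the 10 genes, those of Tead1 and Tead4 not being in the table. At least 1 match was present for 7 of the 8, all but Tead2, beside 16.6% of the 27025 genes with a window and 14.7% of 32851 windows. The set was chosen to include known targets, so its share is not independent of that choice. In the lists described below, a match was present for 6 of 19 Hippo regulators, 3 of 4 VGLL genes and 3 of 11 other targets with a window. It was present for 0 of 5 14-3-3 genes and 0 of 4 relatives and ligands of Axl. Genes with several starts have several windows (3 for Tead3 and 2 each for Wwtr1 and Lats2) and so more room for a match. A match describes the letters only. The promoter of Ankrd1, the target with the smallest p of the 4, held 2 matches, where 1.57% of genes have 2 or more in a window, and is shown whole with the matches in capitals (chr19:36119795-36120094, minus strand, 5' to 3').

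Ankrd1 promoter: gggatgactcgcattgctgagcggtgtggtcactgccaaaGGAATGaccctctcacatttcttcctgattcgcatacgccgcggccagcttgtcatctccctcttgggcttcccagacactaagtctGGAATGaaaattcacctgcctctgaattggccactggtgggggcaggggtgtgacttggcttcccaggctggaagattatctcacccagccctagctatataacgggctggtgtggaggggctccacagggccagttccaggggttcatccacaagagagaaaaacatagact

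The matches of 6 other genes are shown in windows of 30 bases with the 6 motif letters in capitals, to set their flanking bases side by side. For Tead3, which held 3 in the window of its second start and 1 in that of the first, only the first in the second window is marked. The next match of that window lies in the same 30 bases and is left in lower case.

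Yap1, chr9:8004720-8004749, - strand: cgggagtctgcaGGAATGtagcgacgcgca

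Wwtr1, chr3:57576029-57576058, - strand: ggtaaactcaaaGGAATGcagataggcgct

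Tead3, chr17:28350706-28350735, - strand: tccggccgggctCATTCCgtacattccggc

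Amotl2, chr9:102717727-102717756, + strand: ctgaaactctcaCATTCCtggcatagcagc

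Axl, chr7:25788949-25788978, - strand: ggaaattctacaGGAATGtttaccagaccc

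Lats2, chr14:57746102-57746131, - strand: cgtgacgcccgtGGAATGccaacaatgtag

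Counted from the start, the match began at base -141 in Yap1, -65 in Amotl2 and -233 in Axl, and the matches of Ankrd1 began at -210 and -123. In Lats2 it began at base 4, after the start. Tead2, with no match in its window, had the largest log2 fold change of the set (0.32). Amotl2, with 1 match, had the smallest in size (-0.01), and Ankrd1, with 2, had 0.17. Whether promoter matches go with the differences was not tested.

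**Figure D4:**
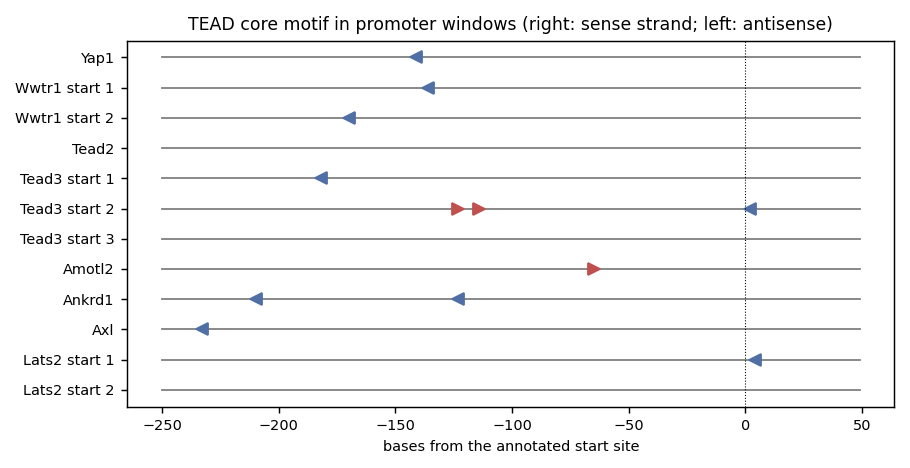
Positions of the TEAD core motif (triangles) in the promoter windows of 8 genes, in bases from the annotated start site at 0, with genes with several starts shown once per start. Right-pointing triangles are on the gene's strand and left-pointing ones on the opposite strand. All windows but those of Tead2, the third start of Tead3 and the second start of Lats2 hold a match.

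Other genes known as YAP and TAZ targets lay on both sides of 0. Of 18 listed, 13 were tested and none was called in limma. Before adjustment 5 were higher and 1 lower with p under 0.05 (13.6% and 5.86% of tested genes), the same 6 genes in which the groups did not overlap, beside 17.4% of tested genes with all in9 libraries above and 8.08% with all below. The median log2 fold change of the 13 was 0.16, and 0.10 with libraries rescaled by trimmed means, beside 0.06 and 0.01 over all tested genes. Of the other 5, Rbms3, Foxf2 and Igfbp3 were listed at 0 in all libraries and Fjx1 and Ccdc80 were under the minimum. Of the 11 with a promoter window, 3 (Ccn1, Crim1 and Ptpn14) held the TEAD core letters.

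Ccn1, which encodes the matricellular protein CYR61 and is a classic target of YAP, stood on the other side from Ankrd1. It had 612, 664 and 660 TPM in in9, against 716, 766 and 773 TPM in LV2. Every in9 library was below every LV2 library, and the difference on log2(TPM + 1) was -0.22 ± 0.05 (SE, adjusted p = 0.0974 in limma). Ccn2, the gene of connective tissue growth factor, named here for its role as a target of the same kind, had 154, 172 and 182 TPM in in9, against 173, 183 and 188 TPM in LV2. Its groups overlapped and its log2 fold change was -0.10 ± 0.07 (SE, adjusted p = 0.466).

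Nt5e, the gene of the ecto-enzyme CD73, had the smallest p of the 13. It had 61.0, 64.75 and 64.1 TPM in in9, against 53.9, 47.3 and 45.4 TPM in LV2, and in limma its fold change on the log2 scale was 0.37 ± 0.07 (SE, adjusted p = 0.0736). The in9 libraries lay close together and above all LV2 libraries. Myof, which encodes the membrane repair protein myoferlin, had 240.4, 259.6 and 282 TPM in in9, against 229, 221 and 222 TPM in LV2 (log2 fold change 0.21 ± 0.06, adjusted p = 0.145). F3 (tissue factor), Arhgef17 and Nuak2 (a kinase) were also higher in all in9 libraries, with log2 fold changes of 0.16, 0.23 and 0.21, and were named after their values were seen. Without in9 replicate 1, where 7.25% of tested genes were called higher and 3.80% lower, Nt5e and Myof were called higher (adjusted p = 0.0397 and 0.0281) and Ccn1 lower (adjusted p = 0.0458).

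The opposite positions of Ankrd1 and Ccn1 were read within libraries, as a ratio chosen after the values were seen and given with no test. Ankrd1 over Ccn1 was 0.322, 0.304 and 0.305 in in9, against 0.243, 0.232 and 0.234 in LV2. The groups were well apart on this ratio, as they had to be with Ankrd1 above and Ccn1 below LV2 in every in9 library. The ratio therefore adds no separation beyond that of Ankrd1 and Ccn1, and in9 replicate 1 had the highest value. Ccn1 over Ccn2 was 3.97, 3.87 and 3.63 in in9, against 4.14, 4.20 and 4.11 in LV2, a smaller gap in which the groups also did not overlap.

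**Figure D5:**
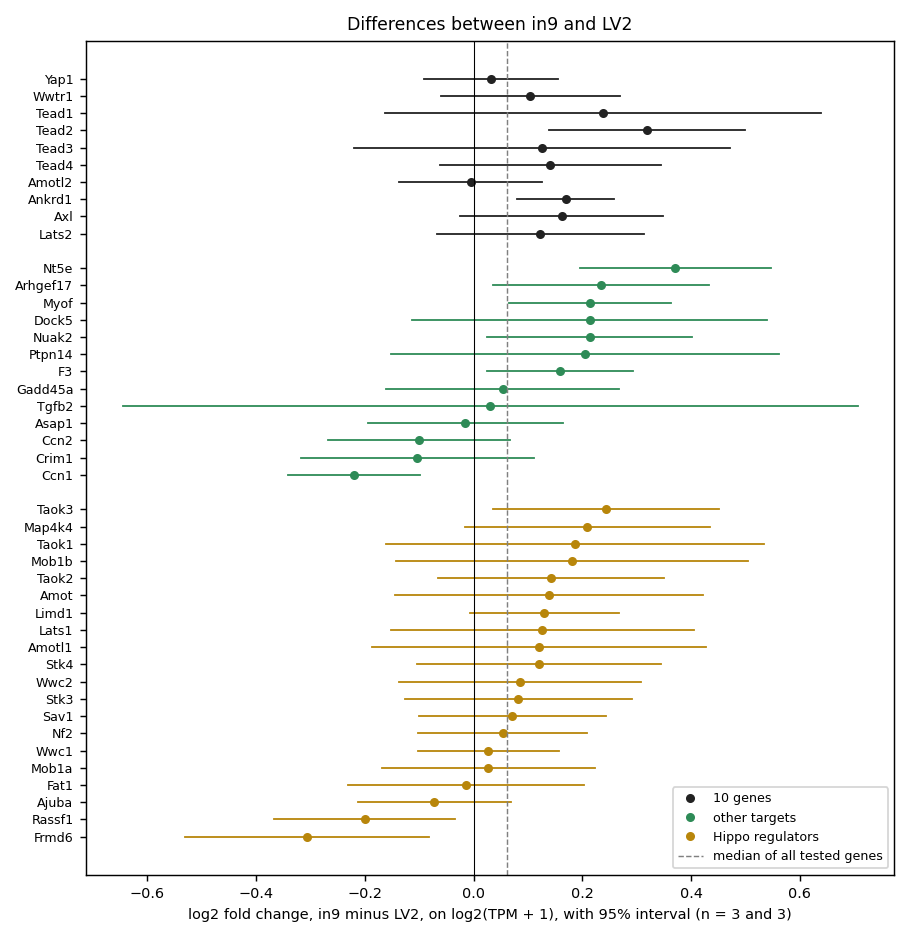
Log2 fold changes (in9 minus LV2 on log2(TPM + 1), points) with 95% intervals (lines, from limma, n = 3 and 3) for the 10 genes, the 13 tested other targets and the 20 tested Hippo regulators. The solid line marks 0 and the dashed line the median of all tested genes, 0.06. Intervals are clear of 0 for Tead2 and Ankrd1 in the first block, for Nt5e, Arhgef17, Myof, Nuak2, F3 and Ccn1 in the second and for Taok3, Rassf1 and Frmd6 in the third, and no gene shown was called over all genes.

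Most genes of the kinases and scaffolds above YAP and TAZ were expressed, and none was called. Of 23 listed, 20 were tested, 16 with a positive log2 fold change and a median of 0.10 (13 and 0.05 after trimmed-mean scaling). Over all tested genes 63.7% were positive, with a median of 0.06 (0.01 after trimmed-mean scaling). Before adjustment 1 was higher and 2 were lower with p under 0.05, beside 13.6% and 5.86% of tested genes. Wtip and the atypical cadherin gene Fat4 were listed at 0 in all libraries and Dchs1, the gene of its ligand, was under the minimum. The core kinases are named for their role. Stk3 had 28.99, 35.7 and 33.1 TPM in in9, against 31.3, 31.7 and 28.9 TPM in LV2 (log2 fold change 0.08). Stk4 averaged 29.9 ± 2.96 TPM in in9 and 27.4 ± 2.14 TPM in LV2 (SD, n = 3 each, log2 fold change 0.12). Lats1, the partner of Lats2, was at 16.8 ± 2.29 TPM in in9 and 15.3 ± 1.27 TPM in LV2 (SD, n = 3 each, log2 fold change 0.13). The in9 and LV2 libraries overlapped for each of these kinase genes.

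Frmd6, which encodes a FERM-domain protein placed upstream of the kinases, had the smallest p of this list. It had 41.3, 48.7 and 52.4 TPM in in9, against 60.4, 60.2 and 55.4 TPM in LV2. Each in9 library was below each LV2 library, as for 8.08% of tested genes, with in9 replicate 1 the lowest. The log2 fold change was -0.31 ± 0.09 (SE, adjusted p = 0.157 in limma). Rassf1, a scaffold of the MST kinases, had 144.2, 132 and 131 TPM in in9, against 168, 157 and 144.1 TPM in LV2 (log2 fold change -0.20 ± 0.07, adjusted p = 0.194). Taok3, a kinase that can activate MST and LATS kinases, had 9.50, 10.7 and 9.50 TPM in in9, against 8.48, 8.41 and 7.70 TPM in LV2 (log2 fold change 0.24 ± 0.09, adjusted p = 0.201). For Rassf1 the lowest LV2 library lay just under the highest in9 library, and Taok3 was higher in all in9 libraries, as were 17.4% of tested genes.

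The proteins that bind phosphorylated YAP and TAZ in the cytoplasm are the 14-3-3 family, encoded by 6 Ywha genes and Sfn. Sfn, the epithelial 14-3-3 sigma gene, was called over all genes, as no other gene of the lists described here was, where 0.194% of tested genes were called lower. Its level was 123, 128 and 121 TPM in in9, against 151, 151 and 157 TPM in LV2. The log2 fold change was -0.30 ± 0.04 (SE, adjusted p = 0.0453 in limma), and in9 replicate 1 lay alongside the others. Every in9 library was below every LV2 library, as for 8.08% of tested genes. The call was lost, at the same -0.30, with no filter on low values (adjusted p = 0.0702), no intensity trend (0.0923) and the replicate number as a block (0.234). It was also lost whenever in9 replicate 2 or 3 or an LV2 library was left out, with an adjusted p of 0.121 to 0.192 and a log2 fold change of -0.32 to -0.28. The 6 Ywha genes had positive log2 fold changes, of 0.02 to 0.21, beside 63.7% positive and a median of 0.06 over all tested genes. Ywhah was at -0.04 when libraries were rescaled by trimmed means, and none of the 6 was called. For Ywhab, Ywhag and Ywhaq every in9 library was above every LV2 library, as for 17.4% of tested genes. Sfn over the summed Ywha genes was 0.0493, 0.0452 and 0.0424 in in9, against 0.0585, 0.0595 and 0.0629 in LV2, a ratio chosen after its values were seen and given with no test. With in9 replicate 1 left out, 7.25% of tested genes were called higher, and among them were Ywhae and Ywhag, with log2 fold changes of 0.26 each (named after their values were seen).

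The VGLL proteins compete with YAP and TAZ for the TEADs. Vgll4, the main member expressed here, had 35.6 ± 2.04 TPM in in9 and 34.0 ± 4.96 TPM in LV2 (SD, n = 3 each, log2 fold change 0.07, adjusted p = 0.741 in limma). Vgll3 averaged 1.52 TPM in in9 and 1.58 TPM in LV2 (log2 fold change -0.04, adjusted p = 0.939), with no p under 0.05 before adjustment for either gene, and Vgll1 and Vgll2 were listed at 0 in all libraries.

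The relatives of Axl were far lower than Axl itself. Tyro3, a receptor of the same family, had 10.3, 11.5 and 10.2 TPM in in9, against 14.8, 13.1 and 12.55 TPM in LV2. Its in9 libraries were all below LV2, as for 8.08% of tested genes. The difference on log2(TPM + 1) was -0.31 ± 0.09 (SE, adjusted p = 0.143 in limma). Axl over Tyro3 was 45.7, 49.2 and 53.8 in in9, against 33.5, 34.9 and 36.5 in LV2, again a ratio chosen after its values were seen and given with no test. Mertk, the third receptor, and the ligand genes Gas6 and Pros1 averaged at most 0.1 TPM in either group.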

How the data were processed

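Messenger RNA of 4T1 cells was measured in 6 libraries, 3 in9 and 3 LV2, grouped by their titles. The deposited table holds TPM values made by the authors, with a mean TPM column per group that matched the library means within 3.33e-05. The build was mm10 per the submitters' processing notes, while which aligner, quantifier and annotation were used was not given in the sources used here. No read counts were used, so depth and counting error are unknown.

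The 13406 genes averaging 1 TPM or more were tested on log2(TPM + 1), using limma 3.58.1 (R 4.3.3), an intensity trend, no replicate block and two-sided tests. Benjamini-Hochberg adjustment ran over all of them, and calls needed an adjusted p under 0.05. Fold changes on this scale understate the change of low genes. Shares within a library were compared by exact permutation tests (scipy 1.17.1). The fit was tested on simulated data with independent scatter for each gene and with changes larger than any in the set. That simulation held no library that stood apart, as in9 replicate 1 did. Alternatives were a pseudocount of 0.1, no filter, a minimum mean TPM of 5, trimmed-mean and quantile scaling, no trend, library weights, a replicate block and leaving out each library, and, added after the data were seen, TPM without mitochondrial transcripts.

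The 10 genes and the gene lists were chosen with earlier results of these data known. Named genes were the 10, every called gene of each other list or else its 3 with the smallest p, and the 3 most like Yap1 and Wwtr1 by Pearson r. Coordinates and 3' UTRs were taken from GENCODE M21 (55141 of the table's 56448 identifiers matched), and promoters and miR-9 from RefSeq GRCm38.p6.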

Additional observations from a re-analysis of the deposited data

How the results depend on the processing

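Of the 10 genes, 0 were called under every alternative except library weights (3 higher) and leaving out in9 replicate 1 (4 higher), so leaving out 1 library gave 0 to 4. The cause was not tested. The signs of Tead1, Tead2, Tead4, Wwtr1, Ankrd1, Axl and Lats2 held under all 15 alternatives. Yap1 turned to -0.0264 with trimmed-mean scaling, -0.0048 with quantile normalization and -0.000504 without in9 replicate 2 (-0.000504 to 0.0595 without 1 library), and Tead3 to -0.0011 with quantile normalization. Amotl2 turned to 0.0205 with library weights and 0.0129 without mitochondrial transcripts, and ran from -0.0435 to 0.0366 without 1 library, positive without in9 replicate 1 or LV2 replicate 1. The Wwtr1 share differed by 0.761 to 1.81 points without 1 library, and the Tead1 share by -1.32 to 1.98 points, turning negative without in9 replicate 2 (-0.442), in9 replicate 3 (-1.32) or LV2 replicate 2 (-0.177).

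Over all genes the counts higher and lower were 24 and 6 with no filter, 27 and 4 with no trend, 1166 and 523 with library weights, and 150 and 45 with a minimum mean TPM of 5. They were 96 and 42 with trimmed-mean scaling, that is 69.6% higher against 80.9% without it. Without 1 library they were 6 to 971 and 1 to 509, the most without in9 replicate 1. Called genes of the other lists were, with library weights, 1 Hippo regulator, 3 other targets and 3 of the 14-3-3 genes. Without 1 library there were 0 to 3 other targets and 0 to 3 of the 14-3-3 genes. Sfn was not called, leaving 0 of the 14-3-3 genes, with no filter, no trend or the replicate block.

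With the replicate number as a block 1 gene was higher and 1 lower over all genes and none of the 10 was called. Same-numbered libraries had deviations with correlations of -0.10, 0.02 and -0.05 for replicates 1, 2 and 3, and differently numbered ones had -0.06 to 0.10. With 3 libraries per group these values cannot decide whether the numbers pair the libraries, and the labels do not say. Depth is unknown, so what it limits cannot be given.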
